A study of Caenorhabditis elegans with 6 samples.

Results

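The 10 genes described here encode aspartyl proteases of Caenorhabditis elegans, and their data are the RNA levels of asp-1, asp-2, asp-3, asp-4, asp-5, asp-6, asp-8, asp-10, asp-12 and asp-17 in whole adult worms. They were taken from the deposited tables by gene symbol, and each had 1 locus with the same name and position in all 7 tables. They are 10 of the 14786 loci used and of the 13347 that were tested. The 10 were chosen by symbol with their FPKM in both groups of these libraries already known. Their difference between the groups is therefore given as a description, and no p-value is given for any of the 10.

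Aspartyl proteases are relatives of pepsin and cathepsin D. A pair of aspartate residues in the active site cuts peptide bonds, most are made as inactive precursors, and they work in acid compartments such as the lysosome and the gut lumen. In the worm the intestine digests bacteria and stores fat, and it is a main site of protease expression.

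Worms were of the Bristol N2 strain with a wild-type genotype, kept at 20 °C. L4 larvae were put on plates with 6 mM IPTG, where the food bacteria produce the double-stranded RNA, and pellets of whole adults of their progeny were frozen for RNA. The groups were prx-5 RNAi, against the receptor that carries enzymes into peroxisomes, and the control tag-208 RNAi, with 3 biological replicates each. The control worms thus also received an RNAi treatment, against a gene now called sorb-1, and a difference can come from either group. Values are FPKM, fragments scaled to transcript length and to the mapped fragments of the library. Levels can thus be compared between genes, less surely where a locus covers part of a gene or overlaps another gene. Log2 differences are prx-5 RNAi minus tag-208 RNAi on log2(FPKM + 1) with the standard error (SE) of a limma fit over all tested loci, and a locus was called at a Benjamini-Hochberg adjusted p under 0.05.

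The RNA of prx-5 went against its label. It was 14.9, 21.3 and 23.5 FPKM in the libraries labelled prx-5 RNAi, against 4.48, 4.73 and 3.50 FPKM in the libraries labelled tag-208 RNAi (limma adjusted p = 0.00865). All directions here are those of the labels alone. Whether the labels of the groups were exchanged was not tested, and if they were, every direction and ratio given here would be turned round. The RNA of sorb-1 was 13.6, 14.8 and 25.6 FPKM in the libraries labelled prx-5 RNAi, against 11.5, 12.9 and 6.96 FPKM in those labelled tag-208 RNAi (limma adjusted p = 0.232). Read numbers are unknown for all 6 libraries, and depth estimated from the spacing of low FPKM values ran from 0.767 to 1.26 times that of tag-208 replicate 1. The replicates were not alike. On the first principal component (52.1% of the variance), prx-5 replicate 1 lay at 7.39, against 54.2 and 59.9 for prx-5 replicates 2 and 3. Tag-208 replicate 2 lay at -15.4, against -51.2 and -54.8 for tag-208 replicates 1 and 3. Values are therefore also given without prx-5 replicate 1 and without tag-208 replicate 2.

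Every one of the 10 genes had more RNA in all 3 libraries labelled prx-5 RNAi than in any library labelled tag-208 RNAi. The ratio of the means ran from 2.44 for asp-4 to 58.8 for asp-12. In RNA of whole worms, a change in the number of cells of a type and a change in RNA per cell cannot be told apart. All 10 passed the low-value filter of a mean of 1 FPKM. In the limma fit 10 were called higher and 0 lower, where 8.69% of all tested loci were called, 7.49% higher and 1.2% lower. In 10 of 10 genes the 2 groups were fully separated with prx-5 RNAi above, where 21.2% of all tested loci were separated that way and 5.8% the other way. The authors' deposited table also called 10 of 10 higher, where it called 9.52% of the tested loci higher and 4.85% lower. Since these values were in view when the genes were chosen, nothing is read from the counts. The median log2 difference was 2.44 over the 10 genes and 0.04 over all tested loci. The number called moved with single libraries, as did the number over all loci. It was 3 of 10 (asp-4, asp-5 and asp-6) without tag-208 replicate 1, where 2.27% of all tested loci were called, and 0 without tag-208 replicate 3, where 0.579% were. It was 1 (asp-5) without prx-5 replicate 2, where 1.17% of all loci were called, and 1 (asp-5) without prx-5 replicate 3, where 1.04% were. All 10 were called without prx-5 replicate 1 (13.8% of all loci) and without tag-208 replicate 2 (6.56%).

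**Figure D1:**
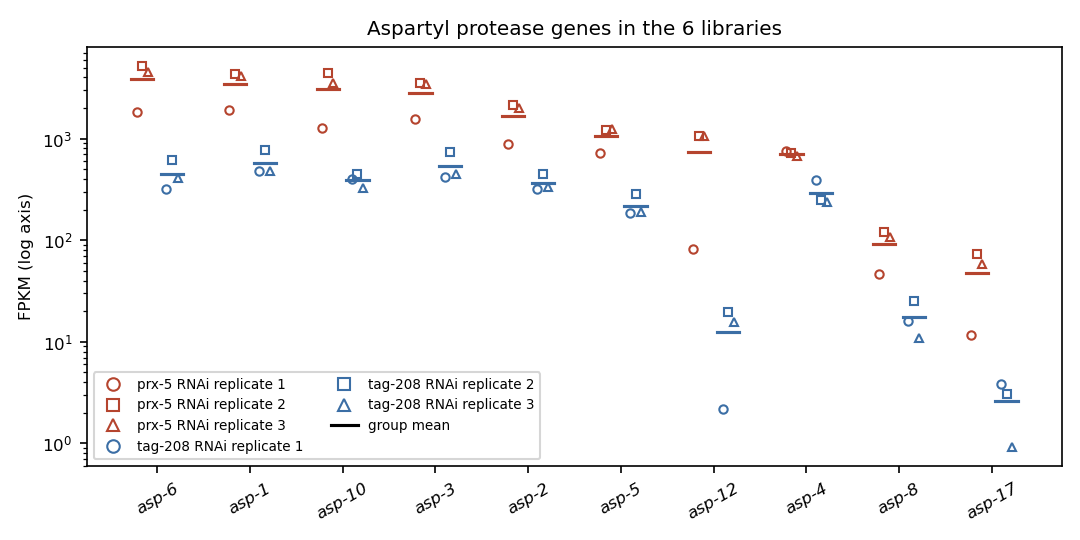
FPKM of the 10 aspartyl protease genes on a log axis, with prx-5 RNAi on the left of each pair and tag-208 RNAi on the right, 1 symbol per library and a bar at the group mean (n = 3). For asp-12 the prx-5 RNAi values run from 82.8 to 1070 FPKM, against 2.17 to 19.8 FPKM in tag-208 RNAi, while asp-4 has the smallest gap, 669 to 754 FPKM in prx-5 RNAi against 236 to 392 FPKM in tag-208 RNAi.

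The 10 genes were also summed in each library. Their summed level was 9116, 22789 and 20766 FPKM in prx-5 replicates 1, 2 and 3, against 2538, 3615 and 2457 FPKM in tag-208 replicates 1, 2 and 3. The means were 17557 ± 7380 FPKM in prx-5 RNAi and 2870 ± 646 FPKM in tag-208 RNAi (SD, n = 3 each), a ratio of 6.12. The ratio was 7.59 without prx-5 replicate 1, 7.03 without tag-208 replicate 2, and 3.18 for prx-5 replicate 1 alone. As a share of all FPKM of a library, the sum was 1.07%, 3.14% and 2.8% in the prx-5 libraries, against 0.311%, 0.466% and 0.285% in the tag-208 libraries. In prx-5 replicates 2 and 3, 7 of the 10 genes stood at 1000 FPKM or more, and 4 did in prx-5 replicate 1, against 0 in each tag-208 library.

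The order of the mean levels also differed between the groups. In prx-5 RNAi the means ran asp-6, asp-1, asp-10, asp-3, asp-2, asp-5, asp-12, asp-4, asp-8 and asp-17 from high to low. Neighbours in that order overlapped in their ranges over the libraries, with the exception of asp-4 and asp-8, which lay at 669 to 754 and 47.0 to 121 FPKM. Within each prx-5 library, though, asp-3 lay above asp-2, asp-2 above asp-5 and asp-5 above asp-12. Likewise asp-4 lay above asp-8 and asp-8 above asp-17 in each. The other neighbours changed places between prx-5 libraries. In tag-208 RNAi asp-1 was the highest of the 10 in each library, and asp-3 was next in each. In prx-5 replicate 1 asp-1 was also the highest, at 1921 FPKM against 1846 FPKM for asp-6. Only in prx-5 replicates 2 and 3 was asp-6 the highest. The share of asp-6 in the sum was 20.2% to 22.7% in the prx-5 libraries, against 12.6% to 16.9% in the tag-208 libraries. The share of asp-4 was 3.16% to 8.27% in the prx-5 libraries, against 6.93% to 15.5% in the tag-208 libraries, so its ranges overlapped. For asp-12 the share was 0.909% to 5.12% in the prx-5 libraries, against 0.0856% to 0.638% in the tag-208 libraries.

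**Figure D2:**
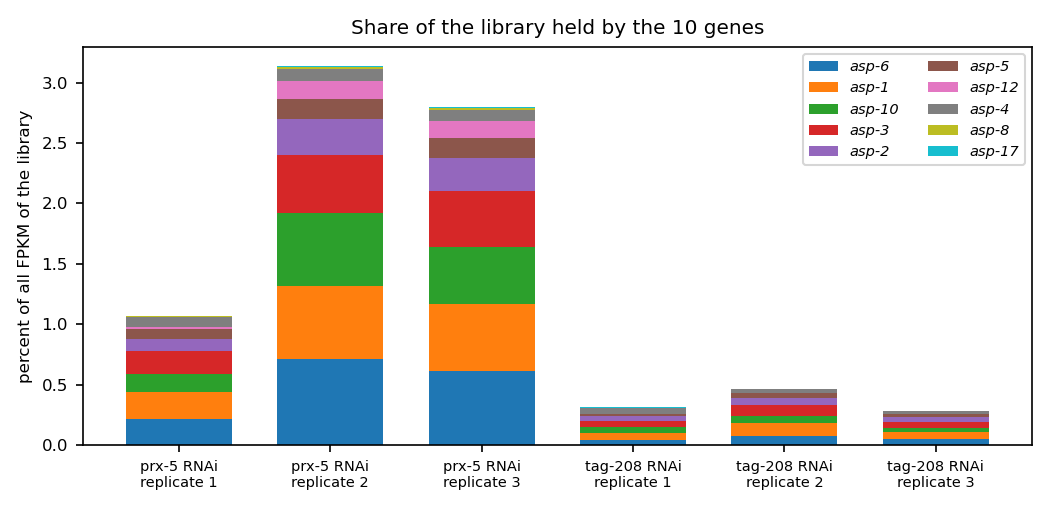
Stacked bars of the share of all FPKM in each library that falls on the 10 aspartyl protease genes, in percent from 0, with 1 colour per gene and the prx-5 RNAi libraries on the left. The bars reach 1.07%, 3.14% and 2.8% in prx-5 RNAi, against 0.285% to 0.466% in tag-208 RNAi, and asp-6, asp-1, asp-10 and asp-3 fill most of each prx-5 RNAi bar.

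The genes asp-3 and asp-4 encode lysosomal proteases of the cathepsin D kind that take part in necrotic death of worm neurons, where calpains act before them. The gene asp-3 (WBGene00000216) was measured on chromosome X from 6791108 to 6792738, on the forward strand. The build of the coordinates is not given, but 98.15% of loci with 1 known gene overlapped it in WBcel235. Its level was 1575, 3491 and 3431 FPKM in prx-5 RNAi, against 418, 742 and 452 FPKM in tag-208 RNAi, with prx-5 replicate 1 the lowest of its group and tag-208 replicate 2 the highest of its own. The ratio of means was 5.27 (log2 difference 2.36 ± 0.38, SE), 6.44 without prx-5 replicate 1 and 6.51 without tag-208 replicate 2. In rank by FPKM among all loci used, asp-3 stood at 11 to 80 in the prx-5 libraries and at 149 to 261 in the tag-208 libraries.

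The other lysosomal gene, asp-4 (WBGene00000217, chromosome X, 13218970 to 13221461, reverse strand), had a different profile. It had 754, 719 and 669 FPKM in prx-5 RNAi, against 392, 251 and 236 FPKM in tag-208 RNAi. Here prx-5 replicate 1 was the highest of its group, not the lowest, and the 3 prx-5 values were close to each other. Their SD was 5.94% of the mean, where the other 9 genes had 28.1% to 76.9%. The ratio of means was 2.44 (log2 difference 1.32 ± 0.23), the smallest of the 10, and it was 2.37 without prx-5 replicate 1 and 2.27 without tag-208 replicate 2. The locus overlaps the gene R12H7.4 on the other strand, and since no source used here states that strand was used in counting, reads of the pair cannot be told apart. The same holds for asp-2 with inx-10 and for asp-10 with C15C8.7.

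The gene asp-1 (WBGene00000214, chromosome V, 19049123 to 19051227, reverse strand) encodes a protease known from intestinal cells. It had 1921, 4377 and 4110 FPKM in prx-5 RNAi, against 478, 778 and 485 FPKM in tag-208 RNAi. In prx-5 replicate 2 it ranked 5 of all loci by level, and in tag-208 replicate 3 it ranked 244. The ratio of means was 5.98 (log2 difference 2.53 ± 0.38), 7.31 without prx-5 replicate 1 and 7.21 without tag-208 replicate 2. Its profile lay nearest of the 10 to that of asp-3. After each gene was centred on its own mean, the 2 profiles differed by a root mean square of 0.09 on the log2 scale over the 6 libraries.

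The gene listed as asp-10 (WBGene00007605, chromosome V, 12742041 to 12744209, forward strand) is hrg-7 in the current annotation. HRG-7 is an aspartyl protease homolog that the intestine secretes when heme is scarce and that signals to other tissues. Its level was 1279, 4395 and 3509 FPKM in prx-5 RNAi, against 403, 452 and 323 FPKM in tag-208 RNAi. The lowest prx-5 value was 2.83 times the highest tag-208 value, and in prx-5 replicate 2 asp-10 was the locus with rank 4. The ratio of means was 7.80 (log2 difference 2.79 ± 0.46), 10.1 without prx-5 replicate 1 and 8.43 without tag-208 replicate 2.

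A run of 3 of the genes, asp-6, asp-12 and asp-5, lies in 6812 bases of chromosome V. The gene asp-6 (WBGene00000219, 8267435 to 8268937, reverse strand) had 1846, 5183 and 4572 FPKM in prx-5 RNAi, against 320, 610 and 411 FPKM in tag-208 RNAi. With a ratio of means of 8.65 (log2 difference 3.03 ± 0.44) it had the highest mean of the 10 in prx-5 RNAi, and it ranked 3 of all loci in prx-5 replicate 2. That ratio was 10.9 without prx-5 replicate 1 and 10.6 without tag-208 replicate 2. The gene asp-5 (WBGene00000218, 8272321 to 8274246, forward strand) had 715, 1228 and 1233 FPKM in prx-5 RNAi, against 184, 283 and 191 FPKM in tag-208 RNAi. Its ratio of 4.83 (log2 difference 2.25 ± 0.29) was 5.62 without prx-5 replicate 1 and 5.65 without tag-208 replicate 2. It was called in 5 of the 6 fits that left out a library, all but that without tag-208 replicate 3. These fits share most of their libraries, and the values were in view when the genes were chosen, so nothing is read from that count.

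Between them, asp-12 (WBGene00017678, 8270565 to 8272214, forward strand) had the widest range. Its level was 82.8, 1070 and 1063 FPKM in prx-5 RNAi, against 2.17, 19.8 and 15.7 FPKM in tag-208 RNAi. The groups did not overlap, but prx-5 replicates 2 and 3 averaged 12.9 times prx-5 replicate 1, and tag-208 replicate 1 lay far below tag-208 replicates 2 and 3. The means were 739 ± 568 FPKM in prx-5 RNAi and 12.6 ± 9.23 FPKM in tag-208 RNAi (SD, n = 3 each), a ratio of 58.8 with a log2 difference of 5.47 ± 1.13. The ratio was 84.9 without prx-5 replicate 1, 82.7 without tag-208 replicate 2, and 6.60 for prx-5 replicate 1 alone. The locus covers 52.4% of the annotated gene. It is the 1 gene of the 10 that was not called under median-ratio scaling or quantile normalization. Only 106 bases separate the asp-12 and asp-5 loci, and reads shared by such tandem relatives may have been split between them by the authors' counting, so the level of each is less certain than that of a gene without close relatives.

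The genes asp-2 and asp-8 stood at very different levels but at similar ratios. For asp-2 (WBGene00000215, chromosome V, 9203070 to 9204752, forward strand) the level was 885, 2132 and 2013 FPKM in prx-5 RNAi, against 321, 453 and 333 FPKM in tag-208 RNAi, a ratio of means of 4.55 (log2 difference 2.10 ± 0.36). For asp-8 (WBGene00019105, chromosome V, 3024569 to 3027979, forward strand) it was 47.0, 121 and 107 FPKM in prx-5 RNAi, against 16.2, 25.2 and 10.9 FPKM in tag-208 RNAi, a ratio of 5.25 (log2 difference 2.29 ± 0.42). In both, prx-5 replicate 1 was the lowest of its group and tag-208 replicate 2 the highest of its own. Without prx-5 replicate 1 the ratios were 5.62 for asp-2 and 6.53 for asp-8, and without tag-208 replicate 2 they were 5.13 for asp-2 and 6.76 for asp-8.

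The gene asp-17 (WBGene00012683, chromosome V, 19035708 to 19037311, reverse strand) is known as a target of the transcription factor ZIP-10 in the death of worms that are warmed after severe cold, a route that ISY-1 holds back. It had the lowest mean of the 10 in both groups, 11.6, 73.1 and 58.7 FPKM in prx-5 RNAi, against 3.81, 3.04 and 0.92 FPKM in tag-208 RNAi. The ratio of means was 18.5 (log2 difference 3.52 ± 0.69), the second after that of asp-12. It was 25.5 without prx-5 replicate 1, 20.2 without tag-208 replicate 2 and 4.48 for prx-5 replicate 1 alone. The gene isy-1 had 106, 71.9 and 62.3 FPKM in prx-5 RNAi, against 117, 84.7 and 103 FPKM in tag-208 RNAi, and did not pass the test (log2 difference -0.36 ± 0.23, limma adjusted p = 0.422). The gene zip-10 was not analysed here.

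Most of the 10 genes ranked the libraries of a group alike, and asp-4 did not. Prx-5 replicate 1 was the lowest of its group in 9 of the 10 genes, as in 14 of 15 intestine markers, in 84.6% of the 1000 loci called higher and in 39.6% of all tested loci. Tag-208 replicate 2 was the highest of its group in 8 of the 10 (not in asp-4 and asp-17), as in 11 of the 15 intestine markers, in 50.4% of the loci called higher and in 36.0% of all tested loci. The median deviation of the 10 genes from their tag-208 mean was 1.72, 2.88 and 2.79 on the log2 scale in prx-5 replicates 1, 2 and 3. It was -0.20, 0.43 and -0.21 in tag-208 replicates 1, 2 and 3. For the 15 intestine markers the same medians were 0.93, 1.72 and 1.62 in the prx-5 libraries and 0.03, 0.24 and -0.25 in the tag-208 libraries.

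**Figure D3:**
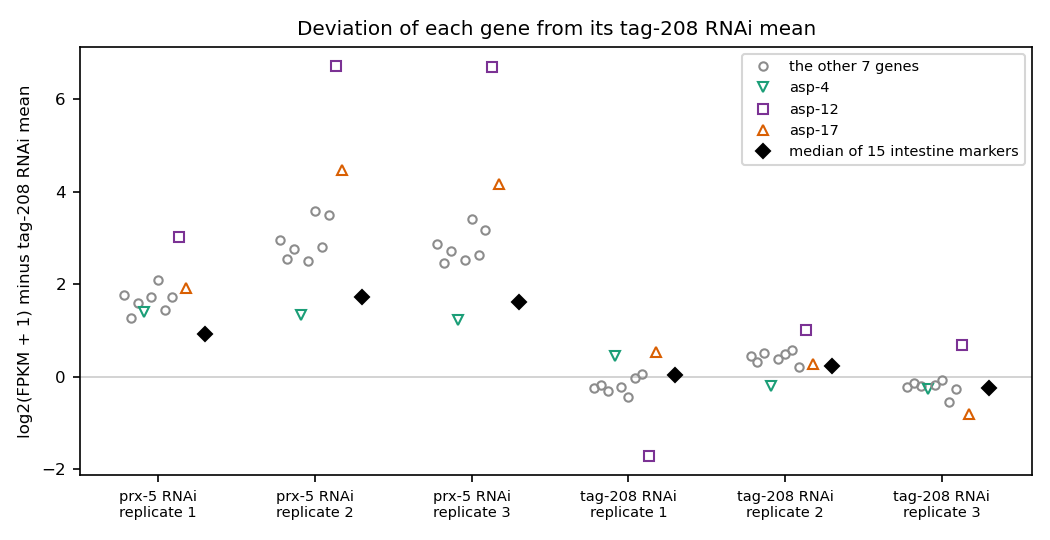
Deviation of each aspartyl protease gene from its own tag-208 RNAi mean, on log2(FPKM + 1), for each of the 6 libraries, with 1 symbol per gene and a diamond for the median of 15 intestine markers. In prx-5 replicates 2 and 3 asp-12 lies at 6.70 and 6.69 and asp-17 at 4.47 and 4.16, while asp-4 lies at 1.40, 1.33 and 1.23 in prx-5 replicates 1, 2 and 3.

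Genes outside the family with the nearest profiles were sought among 6132 named protein-coding genes, by the root mean square difference of centred log2 values over the 6 libraries. All these profiles share the group difference, so the measure describes and does not test. The nearest to asp-6 was hrg-3, a heme chaperone gene, at 0.08, and the nearest to asp-2 was cpr-8, a cysteine cathepsin gene, at 0.09. The transcription factor gene pqm-1 was nearest to asp-3 at 0.11 and to asp-5 at 0.13, and second to asp-1 at 0.13. For asp-4 the nearest was klo-2 at 0.09. The profile of asp-12 had no close match, since the nearest, spp-12, was at 0.94.

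Of the 10 genes, 8 lie on chromosome V and 2 on chromosome X. Around the run of asp-6, asp-12 and asp-5, the 3 loci used before it and the 2 tested after it did not pass the test. The nearest of these with a name, slc-17.5, had 4.52, 13.7 and 11.2 FPKM in prx-5 RNAi, against 2.35, 3.94 and 3.13 FPKM in tag-208 RNAi (log2 difference 1.29 ± 0.38, limma adjusted p = 0.0925). The stretch from asp-17 to asp-1 spans 15520 bases and holds 1 more locus used here, the pseudogene Y39B6A.21. That pseudogene rose to 29.5, 83.2 and 70.2 FPKM in prx-5 RNAi, against 10.9, 14.2 and 12.5 FPKM in tag-208 RNAi (log2 difference 2.08 ± 0.37, limma adjusted p = 0.023). Its libraries stood in the same order as those of asp-1. Of its outer neighbours, twk-46 did not pass (0.88 ± 0.24, limma adjusted p = 0.0723), nor did Y39B6A.27 (0.55 ± 0.35, limma adjusted p = 0.426) or nhr-145 (0.34 ± 0.22, limma adjusted p = 0.41). These neighbours were looked up after the values of the 10 genes were known.

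**Figure D4:**
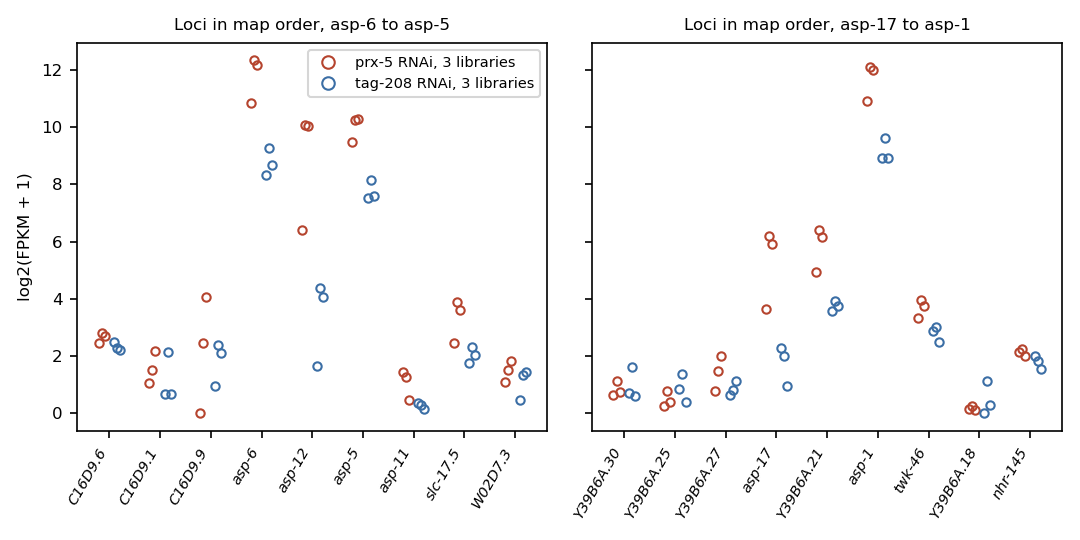
Level of the loci in map order around asp-6 to asp-5 and around asp-17 to asp-1, as log2(FPKM + 1), with prx-5 RNAi on the left and tag-208 RNAi on the right of each position and 1 circle per library. The groups are separated with prx-5 RNAi higher at asp-6, asp-12, asp-5, asp-17, Y39B6A.21 and asp-1, and also at asp-11, slc-17.5, twk-46 and nhr-145. Of the 3 loci before each run the highest tag-208 RNAi value is 4.6 FPKM.

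Other genes of the family with a locus in the tables were asp-9, asp-11 and asp-13, and 0 of the 2 that passed the low-value filter were called by limma. At an unadjusted p under 0.05 there was 1, asp-13, and the authors' deposited table also called asp-13 alone. The share of all tested loci under that unadjusted p is not given here, so nothing is read from that count. The gene asp-13 (chromosome V) had 211, 251 and 263 FPKM in prx-5 RNAi, against 180, 160 and 113 FPKM in tag-208 RNAi (log2 difference 0.70 ± 0.21, limma adjusted p = 0.0974). Its groups did not overlap, but the lowest prx-5 value was close to the highest tag-208 value. The gene asp-9 had 1.03, 1.54 and 6.29 FPKM in prx-5 RNAi, against 3.96, 0.718 and 0.942 FPKM in tag-208 RNAi (0.39 ± 0.59, limma adjusted p = 0.734), at a locus that covers 7.31% of the gene. The pseudogene asp-11, next to asp-5, did not reach the filter, with 1.74, 1.39 and 0.393 FPKM in prx-5 RNAi, against 0.296, 0.224 and 0.118 FPKM in tag-208 RNAi. The genes asp-7, asp-14, asp-15, asp-16, asp-18 and asp-19 were not analysed here.

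Cysteine cathepsins, the other large class of lysosomal and gut proteases, rose in part. Of 14 tested genes 9 rose and 0 fell by limma, where 7.49% of all tested loci were called higher and 1.2% lower. Their median log2 difference was 1.37, against 0.04 over all tested loci. The authors' deposited table called 10 higher and 1 lower, cpz-1 (-0.49 ± 0.29, limma adjusted p = 0.391). With sample weights 10 were called higher and 1 lower, where 39.1% of all tested loci were called, 61.5% of them higher. The gene cpr-9 rose to 1534, 1990 and 2138 FPKM in prx-5 RNAi, against 591, 680 and 563 FPKM in tag-208 RNAi (1.62 ± 0.21, limma adjusted p = 0.0116). The gene cpr-3 averaged 135 ± 79.4 FPKM in prx-5 RNAi and 10.2 ± 3.5 FPKM in tag-208 RNAi (SD, n = 3 each) and rose by 3.41 ± 0.53 (limma adjusted p = 0.0163), and W07B8.4 rose by 3.07 ± 0.46 (limma adjusted p = 0.0149). The call count depended on single libraries, with 0 of 13 tested without tag-208 replicate 3, 0 of 14 without prx-5 replicate 3, 1 without prx-5 replicate 2 and 2 without tag-208 replicate 1, against 10 without prx-5 replicate 1. Over all tested loci these fits called, in the same order, 0.579%, 1.04%, 1.17%, 2.27% and 13.8%.

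Other lysosome genes rose in part. Over all tested loci 7.49% were called higher by limma and 1.2% lower. Of 38 tested lysosome genes that are not proteases, 8 rose and 0 fell (median log2 difference 0.52). They included gba-1, a glucosylceramidase gene (51.4 ± 24.7 FPKM in prx-5 RNAi and 4.15 ± 1.08 FPKM in tag-208 RNAi, SD, n = 3 each, 3.24 ± 0.40, limma adjusted p = 0.0103). Others were the membrane protein gene lmp-2 (1.95 ± 0.32, limma adjusted p = 0.018) and the acid ceramidase gene asah-1 (2.03 ± 0.34, limma adjusted p = 0.019). Of 14 tested subunits of the V-ATPase, the proton pump of lysosomes and gut membranes, 1 rose, the intestinal vha-6 (2.19 ± 0.34, limma adjusted p = 0.0162), and 0 fell (median 0.59). That is 7.14% called higher, near the 7.49% of all tested loci. At an unadjusted p under 0.05 there were 9 higher and 1 lower. The share of all tested loci under that threshold is not given here, so nothing is read from such counts. In 10 of the 14 prx-5 RNAi lay above tag-208 RNAi in every library and in 1 below, where 21.2% and 5.8% of all tested loci did. The authors' deposited table called 6 higher and 1 lower, where it called 9.52% of the tested loci higher and 4.85% lower. Of 6 tested calpain genes 0 were called by limma and 0 in the authors' deposited table (median 0.02). At an unadjusted p under 0.05, 1 was lower. With sample weights 1 higher and 1 lower were called, where that fit called 39.1% of all tested loci, 61.5% of them higher. For the lysosome genes that are not proteases the calls were 0 without tag-208 replicate 3, 1 without prx-5 replicate 2 or 3, and 5 without tag-208 replicate 1 or 2, all higher, and without prx-5 replicate 1 they were 10 higher and 2 lower of 37 tested. For the V-ATPase they were 0 without tag-208 replicate 1 or 3 or prx-5 replicate 2 or 3, and 9 without prx-5 replicate 1.

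Intestine markers moved with the aspartyl protease genes. Of 15 measured, 12 rose and 0 fell by limma (median log2 difference 1.44), where 7.49% of all tested loci rose and 1.2% fell. Among the 12 were the ABC transporter gene pgp-1 (2.14 ± 0.26, limma adjusted p = 0.0103), vha-6 and the gut transcription factor gene elt-7 (1.47 ± 0.24, limma adjusted p = 0.0181). The number called was 0 without tag-208 replicate 3 (0.579% of all tested loci), 1 without prx-5 replicate 2 or 3 (1.17% and 1.04%) and 2 without tag-208 replicate 1 (2.27%). It was 5 or 6 under the other scalings, where 5.24% to 5.77% of all tested loci were called. Their summed level ran from 1182 to 1629 FPKM in prx-5 RNAi, against 435 to 600 FPKM in tag-208 RNAi, and none was listed at 0. The part of these intestine levels in the levels of the 10 genes was not tested. Markers of other tissues had no member called higher by limma. The median log2 difference over all tested loci was 0.04, and the authors' deposited table called 9.52% of them higher and 4.85% lower. The share of all tested loci at an unadjusted p under 0.05 is not given here, so nothing is read from counts at that threshold. Of 17 germline markers 0 were called by limma, 0 had an unadjusted p under 0.05 and 2 were called lower in the authors' deposited table. All 17 had a log2 difference below 0 (median -0.19). Their summed levels were 2553 to 3926 FPKM in prx-5 RNAi, against 2959 to 4278 FPKM in tag-208 RNAi. Of 12 body wall muscle markers 1 fell by limma (mup-2, -1.07 ± 0.18, limma adjusted p = 0.0183). The log2 difference was below 0 in 11 of the 12 (median -0.68). At an unadjusted p under 0.05, 8 were lower, and 8 were called lower in the authors' deposited table. Their sums were 3037 to 4206 FPKM in prx-5 RNAi, against 5437 to 6460 FPKM in tag-208 RNAi. Of 9 epidermis markers 1 fell by limma (col-19, -1.77 ± 0.19, limma adjusted p = 0.00815), while 7 had a log2 difference above 0 (median 0.58). At an unadjusted p under 0.05 there were 2 higher and 1 lower, and the authors' deposited table called 3 higher and 1 lower. The sums of 484 to 493 FPKM in prx-5 RNAi, against 1100 to 1133 FPKM in tag-208 RNAi, are mostly col-19. Without col-19, and without ajm-1, which had no value in tag-208 replicate 2 and was fitted without it, the other 7, an alternative chosen after seeing the data, summed to 114 to 214 FPKM in prx-5 RNAi, against 82.2 to 160 FPKM in tag-208 RNAi. Of 8 sperm markers 0 were called by limma, 2 were lower at an unadjusted p under 0.05 and 4 were called lower in the authors' deposited table. All 8 had a log2 difference below 0 (median -1.1). Of 10 tested pharynx markers 0 were called by limma, 2 were higher at an unadjusted p under 0.05 and 3 were called higher in the authors' deposited table. All 10 had a log2 difference above 0 (median 0.31). Sperm sums were 43.9 to 105 FPKM in prx-5 RNAi, against 79.0 to 330 FPKM in tag-208 RNAi, and pharynx sums 237 to 523 FPKM in prx-5 RNAi, against 220 to 344 FPKM in tag-208 RNAi. The locus listed as spe-9, which covers 10.1% of its gene, was at 0 in at least 1 library. So was the locus listed as unc-89, which is counted among the 12 muscle markers but does not overlap the annotated unc-89 gene, so its value is not the level of that gene.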

How the data were processed

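RNA-seq was made from total RNA of whole adults in 6 libraries. Per the submitters' processing notes the authors used CASAVA, Bowtie, Cufflinks and Cuffdiff. Versions, genome build and annotation are not given in the sources used here. Per the file headers, the authors deposited FPKM per library and per group, and a comparison table with a log2 fold change, a test score, a p-value and a q-value per locus.

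The 7 tables of 15796 loci were joined by row. Loci whose labels differed between tables (913) or whose group FPKM could not be recovered from the libraries within 2% (97) were left out, and 14786 were used. Values with a failed status (29) were set to missing, none of them in the 10 genes. Of loci with 1 known gene, 98.15% overlapped it in WBcel235, and starts were moved to count from 1.

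FPKM were used as deposited. The 13347 loci that averaged 1 FPKM or more were compared on log2(FPKM + 1) with limma 3.58.1 in R 4.3.3, with a variance trend and Benjamini-Hochberg adjustment. The fit was tested on simulated data with independent noise at each locus, so shifts shared by many loci of a library were not simulated. The replicate number was not a block, since the labels do not say that it marks a shared batch, and p-values measure only the spread between these samples. FPKM carry no read counts, so depth is known only as relative values.

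The 10 genes and the companion lists were chosen with earlier results of these data known. Named beside the 10 were other asp genes, the targeted genes and up to 3 called genes per list with the smallest p-values. Alternatives were other pseudocounts and filters, scalings, sample weights, a replicate block, the authors' own calls and leaving out each library.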

Additional observations from a re-analysis of the deposited data

How the results depend on the processing

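The log2 differences of the 10 genes kept their direction under every alternative run. Since the groups were fully separated in all 10, leaving out a library, other pseudocounts or sample weights could not turn a direction. With sample weights asp-6 and asp-12 moved by more than 1 SD, to 3.72 and 7.4. Over all tested loci 1160 were called, against 698 with median-ratio scaling, 770 with quantile normalization, 714 with library constants recovered from the authors' group values, 5217 with sample weights and 1918 in the authors' deposited table; leaving out 1 library gave 78 to 1848. The share called higher was 86.2%, against 73.4%, 69.0% and 73.1% under the 3 scalings, which moved the median of all loci by -0.11, -0.25 and -0.13, and 61.5% with sample weights. Intestine markers called were 12, against 5, 6 and 5 under the 3 scalings. Lysosome genes called were 8, against 4, 5 and 4 under them, 18 with sample weights (16 higher, 2 lower) and 14 in the authors' table (12 higher, 2 lower). V-ATPase subunits called were 1, against 12 with sample weights (10 higher, 2 lower) and 7 in the authors' table (6 higher, 1 lower), calpains 2 with sample weights (1 higher, 1 lower), and other aspartyl protease genes 1 with sample weights and 1 in the authors' table. Leaving out 1 library gave 0 to 10 of the aspartyl protease genes called, 0 to 10 cysteine cathepsins, 0 to 12 intestine markers, 0 to 12 lysosome genes, 0 to 9 V-ATPase subunits and 0 to 7 heme genes. The cause of these changes was not tested.

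With the replicate number as a block, 1253 loci and 13 lysosome genes (12 higher, 1 lower) were called. Same-numbered libraries correlated at 0.29, 0.232 and -0.117 in their deviations from the group means. For prx-5 replicates 1 and 2 the same-numbered tag-208 library correlated best, while prx-5 replicate 3 correlated best with tag-208 replicate 2 (0.33). Whether a shared number marks a shared batch cannot be told from these values. Since FPKM hold no read counts, counting error could not be separated from the spread between libraries.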

Other observations

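Because asp-10 is hrg-7 in the current annotation, other heme genes were looked up after that was seen. Of 8 tested, 5 rose and 0 fell by limma, where 7.49% of all tested loci were called higher and 1.2% lower. The median log2 difference of the 8 was 1.46, against 0.04 over all tested loci. The heme chaperone gene hrg-3 rose to 250, 746 and 636 FPKM in prx-5 RNAi, against 49.3, 81.8 and 62.8 FPKM in tag-208 RNAi (2.94 ± 0.42, limma adjusted p = 0.0139). The heme exporter gene mrp-5 averaged 85.8 ± 28.6 FPKM in prx-5 RNAi and 20.6 ± 1.27 FPKM in tag-208 RNAi (SD, n = 3 each; 1.95 ± 0.25, limma adjusted p = 0.0113). The heme transporter gene hrg-1 rose by 1.66 ± 0.27 (limma adjusted p = 0.0174), hrg-2 by 3.28 ± 0.62 (limma adjusted p = 0.0254) and hrg-10 by 1.15 ± 0.22 (limma adjusted p = 0.026). The heme transporter gene hrg-4 did not pass, with 52.8, 106 and 106 FPKM in prx-5 RNAi, against 40.2, 47.8 and 35.9 FPKM in tag-208 RNAi (1.02 ± 0.29, limma adjusted p = 0.0813). Without tag-208 replicate 3, 0 of the 8 were called, where 0.579% of all tested loci were. Without prx-5 replicate 2 or 3 it was 1, where 1.17% and 1.04% of all tested loci were called. The 15 intestine markers moved the same way (median 1.44), and their part in this was not tested.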
